A study of Rattus norvegicus with 24 samples.

Results

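The genes described here differed in kidney mRNA between 2 rat strains, in the same direction without and with pregnancy: LOC100134871 (ENSRNOG00000061299), a gene without a symbol in the sources used here (ENSRNOG00000015161), Hfm1 (ENSRNOG00000023299), Cyp2d3 (ENSRNOG00000029179) and B4galt6 (ENSRNOG00000015895). They are 5 of the 32883 genes in the count table, and all 5 were among the 14212 genes with enough reads to be tested. The genes were selected on their strain difference in these same rats, so that difference is given as a description and without a test. The question asked of them was how steady the difference stayed between the non-pregnant (NP) stage and pregnancy day 18 (P18).

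The groups were CD-NP, CD-P18, BN-NP and BN-P18, with 3 female rats aged 2 months in each. CD is an outbred Sprague Dawley stock, so its rats are not genetically identical, and BN is the inbred Brown Norway strain, which in the study models a complicated pregnancy. The labels name no treatment besides pregnancy. RNA came from 1 kidney cross-section per rat that held cortex and medulla, and reads were aligned to Rnor6.0, an assembly of the BN strain.

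The genes have unrelated roles. LOC100134871 is the locus tag of a beta-globin gene, which the current RefSeq gene table lists as Hbbl1; beta-globin chains pair with alpha-globin chains to form haemoglobin in the red cell lineage, and a kidney section always carries some blood. Hfm1 encodes a DNA helicase known for meiotic crossover formation in germ cells. Cyp2d3 belongs to the CYP2D cytochromes P450, a cluster of closely related enzymes that oxidise drugs and other foreign compounds, best known in liver. B4galt6 encodes a Golgi galactosyltransferase that makes lactosylceramide, the precursor of most complex glycosphingolipids, which are abundant in kidney tubule membranes.

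The bases just before the annotated start of the globin gene and its same-family neighbours are printed to show how alike these upstream stretches are. They lie before the transcripts, so their likeness does not measure how alike the transcripts are. A read that aligns to several places is not counted on a gene, and how many reads were lost this way was not tested. Sequences are from RefSeq (GRCr8), each 120 bases long, on the minus strand and read 5′ to 3′. Capitals mark 4 motifs on either strand: the TATA-box type words TATAAA and its variant TATAAG, which can overlap when the first is on the reverse strand, the CAAT-box word CCAAT, and the word CACCC of globin promoters.
Hbbl1: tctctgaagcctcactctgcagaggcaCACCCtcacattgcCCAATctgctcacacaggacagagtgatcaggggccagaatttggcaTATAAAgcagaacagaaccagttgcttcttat
Hbb-b1: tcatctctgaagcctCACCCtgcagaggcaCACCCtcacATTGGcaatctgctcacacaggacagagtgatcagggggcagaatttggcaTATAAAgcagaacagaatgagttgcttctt
Hbb-b2: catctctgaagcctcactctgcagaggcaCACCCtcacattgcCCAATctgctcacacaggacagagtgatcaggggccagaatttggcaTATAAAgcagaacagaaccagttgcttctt
Hbb: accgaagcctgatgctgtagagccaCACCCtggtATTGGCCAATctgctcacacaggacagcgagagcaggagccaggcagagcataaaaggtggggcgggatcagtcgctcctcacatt

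These windows lie at chr1:167650236-167650355 for Hbbl1, chr1:167643521-167643640 for Hbb-b1, chr1:167656964-167657083 for Hbb-b2 and chr1:167663722-167663841 for Hbb. Hbbl1 was identical to Hbb-b2 at 248 of 248 aligned bases of the 250 before the start. It matched Hbb-b1 at 242 of 248 aligned positions and Hbb at 161 of 255. The globin windows other than Hbb hold TATAAA, which 6.66% of the 33469 RefSeq promoters hold in the same window, and all the globin windows hold CACCC, found in 29.5% of promoters.

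The windows of Cyp2d3 and of its same-family neighbours Cyp2d5 and Cyp2d1, all on the minus strand, are shown in the same way.
Cyp2d3: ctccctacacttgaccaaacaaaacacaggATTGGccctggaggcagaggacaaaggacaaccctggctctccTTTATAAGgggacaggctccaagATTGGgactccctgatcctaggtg
Cyp2d5: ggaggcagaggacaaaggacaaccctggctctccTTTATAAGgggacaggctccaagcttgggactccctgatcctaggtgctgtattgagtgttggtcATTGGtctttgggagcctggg
Cyp2d1: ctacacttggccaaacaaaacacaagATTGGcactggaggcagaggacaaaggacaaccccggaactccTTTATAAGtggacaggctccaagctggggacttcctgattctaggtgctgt

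They lie at chr7:115802143-115802262 for Cyp2d3, chr7:115784488-115784607 for Cyp2d5 and chr7:115793431-115793550 for Cyp2d1. Cyp2d3 was 97.2% identical to Cyp2d5 over 211 aligned bases and 91.9% identical to Cyp2d1 over 246. These 3 windows share TATAAG, found in 3.43% of promoters, and CCAAT, found in 19.9%. The neighbour on the other side, Cyp2d2, is not printed, since only 42 bases could be aligned with Cyp2d3, of which 24 matched, and its window at chr7:115819282-115819401 holds CACCC but neither TATAAG nor CCAAT. The Hfm1 window, on the plus strand at chr14:3002471-3002590, holds none of the 4 motifs.
Hfm1: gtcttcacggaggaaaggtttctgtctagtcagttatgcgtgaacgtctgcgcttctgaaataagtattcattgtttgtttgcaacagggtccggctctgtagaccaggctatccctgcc

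Each library had 8274159 to 11879451 reads on genes (median 9610369.5), so 1 read was worth 0.0857 to 0.122 CPM, the reads of a gene scaled to a library of 1000000. Levels are CPM after TMM scaling, which corrects for composition between libraries, and they are not divided by gene length, so they are compared between rats and not between genes. Of the kidney markers, 5 of 9 could be looked up, and all were expressed, among them the proximal tubule phosphate transporter Slc34a1 (group means of 1618 to 2716 CPM). A gene was called where edgeR's quasi-likelihood test gave a Benjamini-Hochberg adjusted p under 0.1 and the higher level exceeded the lower by over 25%. Among tested genes, 8.38% were called between strains at NP and 9.60% at P18, while pregnancy called 4.71% in CD and 1.40% in BN.

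In all 5 genes the 3 BN rats and the 3 CD rats did not overlap at either stage. By choice of the genes this count carries no weight, and 7.73% of all tested genes showed such a split at both stages in the same direction. Of the 5 genes, 4 were lower in BN and Hfm1 was higher.

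**Figure D1:**
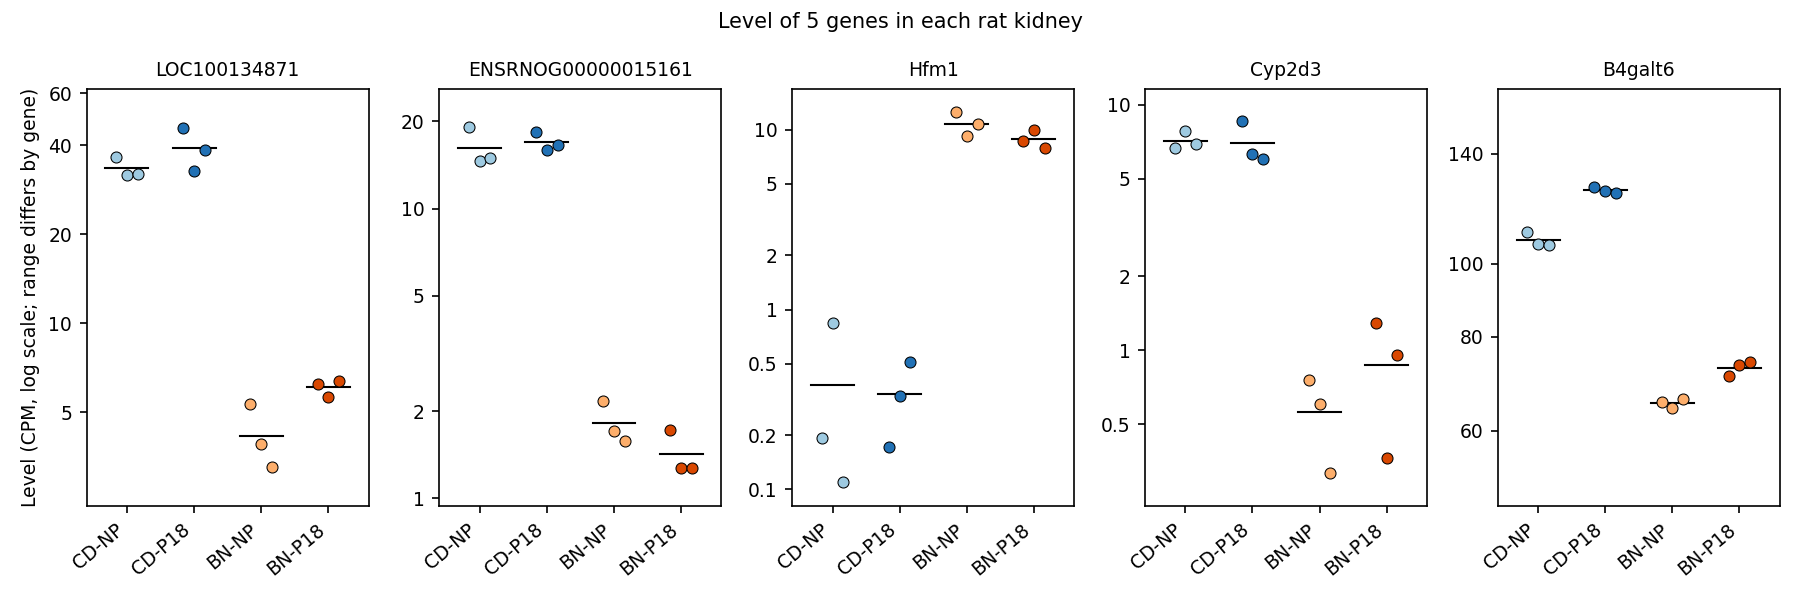
CPM on a log axis for each of the 5 genes, with 1 point per rat, 3 rats per group and a line at the group mean; the axis range differs by gene. CD lies above BN in 4 panels and below it in the Hfm1 panel, and the stages of 1 strain lie close together.

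The beta-globin gene LOC100134871 was about 8-fold lower in BN kidneys than in CD kidneys before pregnancy. Its CPM in CD-NP was 36.6, 31.9 and 32.1, and in CD-P18 it was 45.9, 32.8 and 38.4. In BN-NP it was 5.33, 3.89 and 3.27, and in BN-P18 it was 6.23, 5.65 and 6.38. The CD stages overlapped, whereas every BN-P18 rat lay above every BN-NP rat, and the lowest CD rat stood 5.0-fold above the highest BN rat.

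The group means of LOC100134871 were 33.5 ± 2.64 and 39.1 ± 6.58 CPM in NP and P18 rats of CD and 4.16 ± 1.06 and 6.09 ± 0.383 CPM in those of BN (SD, n = 3). The log2 strain difference (BN over CD) was -3.01 ± 0.17 (SE) at NP and -2.69 ± 0.16 at P18. BN thus held 12.4% of the CD level at NP and 15.6% at P18. The highest CD value, 45.9 CPM, came from CD-P18 replicate 1, which was also the rat with the most reads counted on genes.

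Blood content was examined beside the globin gene through 2 of 7 blood markers that could be looked up, Alas2, the erythroid haem synthesis enzyme, and Slc4a1, the band 3 anion exchanger, which kidney intercalated cells express as well. Neither was at 0 in any group. Their summed level ran from 418.8 to 472.3 CPM in CD-NP and 291.7 to 359.3 in BN-NP rats, and at P18 it spanned 451.6 to 528.9 (CD) and 332.6 to 491.8 (BN). The sum is nearly all Slc4a1, which was lower in BN at NP (log2 -0.48 ± 0.13, edgeR adjusted p = 0.0506) with a smaller value at P18 (-0.34 ± 0.13, edgeR adjusted p = 0.154).

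Alas2, which is specific to the red cell lineage, was not called between strains at either stage. Its means were 4.85 and 8.05 CPM in NP and P18 rats of CD and 6.20 and 8.23 CPM in those of BN. The log2 strain difference of Alas2 was 0.35 ± 0.27 at NP and 0.02 ± 0.25 at P18 (edgeR adjusted p = 0.502 and 0.976). In whole tissue, fewer blood cells and less RNA per cell cannot be told apart, and the part of blood content in the LOC100134871 difference was not tested beyond these values.

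Of the globin and erythroid genes listed, Alas2 and Slc4a1 are the ones given here. The globin genes that flank Hbbl1 in RefSeq order, Hbb-bs and Hbb-b1 on one side and Hbb-b2 and Hbb on the other, could not be looked up.

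ENSRNOG00000015161 was the gene that separated the strains most evenly, with strain accounting for 98.4% of the variance of its log2 level over the 12 rats. Its reads numbered 198, 138 and 136 in CD-NP and 215, 145 and 162 in CD-P18. In BN it had 20, 14 and 15 reads at NP and 16, 14 and 12 at P18. Both CD groups overlapped each other, both BN groups overlapped each other, and the lowest CD rat was 6.70-fold above the highest BN rat in CPM.

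Its means were 16.2 ± 2.56 and 17.0 ± 1.29 CPM in NP and P18 rats of CD and 1.82 ± 0.313 and 1.42 ± 0.255 CPM in those of BN (SD, n = 3). The log2 strain difference of ENSRNOG00000015161 was -3.15 ± 0.19 (SE) at NP and -3.57 ± 0.19 at P18. The CD mean was 8.91 times the BN mean at NP and 11.9 times at P18. The spread between BN rats, 17.2% and 17.9% of the mean, was under the 24.7% and 26.7% that counting so few reads gives by itself. Each SD rests on 3 rats, and choosing the gene for its strain difference favours a small spread, so this carries no weight.

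Hfm1, the meiotic helicase, was the gene of the set that was high in BN, and in CD it was close to the limit of detection. CD-NP rats had 2, 8 and 1 reads and CD-P18 rats 2, 3 and 5. BN-NP rats had 115, 76 and 102 reads and BN-P18 rats 81, 109 and 75. The most any CD rat had was 8 reads, in CD-NP replicate 2, while no BN rat had fewer than 75, and the stages overlapped within each strain.

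In CPM, Hfm1 averaged 0.382 ± 0.402 and 0.337 ± 0.169 in NP and P18 rats of CD and 10.8 ± 1.63 and 8.87 ± 0.994 in those of BN (SD, n = 3). The reads summed over a CD group were 11 at NP (95% Poisson interval 5.49 to 19.7, counting error only) and 10 at P18 (4.79 to 18.4). The log2 strain difference was 4.79 ± 0.39 (SE) at NP and 4.70 ± 0.40 at P18, with the largest SE of the genes and few CD reads behind it. Without CD-NP replicate 2 the NP value was 6.02 and the change from NP to P18 moved from -0.08 to -1.32, so the size of the Hfm1 difference at NP rests on that rat.

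Of 27 other genes of meiotic recombination listed, 2 could be looked up, and both were called higher in BN at both stages. Rnf212, a ligase that marks crossover sites, had 1, 0 and 7 reads in CD-NP rats and 3, 2 and 3 in CD-P18 rats, against 35, 43 and 30 in BN-NP rats and 30, 43 and 29 in BN-P18 rats. Its groups did not overlap between strains, and the log2 difference was 3.80 ± 0.56 at NP and 3.64 ± 0.56 at P18 (edgeR adjusted p = 0.00141 and 0.00145). The CD rat with the most Rnf212 reads, CD-NP replicate 3, was not the one with the most Hfm1 reads.

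Msh5, which stabilises crossover intermediates, averaged 3.81 ± 0.906 and 3.53 ± 0.400 CPM in NP and P18 rats of CD and 6.00 ± 0.639 and 7.0 ± 1.10 CPM in those of BN (SD, n = 3). Its log2 strain difference was 0.65 ± 0.21 at NP and 0.99 ± 0.21 at P18 (edgeR adjusted p = 0.0906 and 0.0113). Symbols could be looked up only through a gene table that leans to genes with differences in these samples, so these 2 genes do not stand for the list. The germ cell markers Ddx4, Dazl and Sycp3 could not be looked up. In RefSeq order Rnf212 and Hfm1 lie on chromosome 14 with 54 annotated entries between them, and the immediate neighbours of Hfm1 are Cdc7, Tmem258l3 and 2 long non-coding RNAs.

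**Figure D2:**
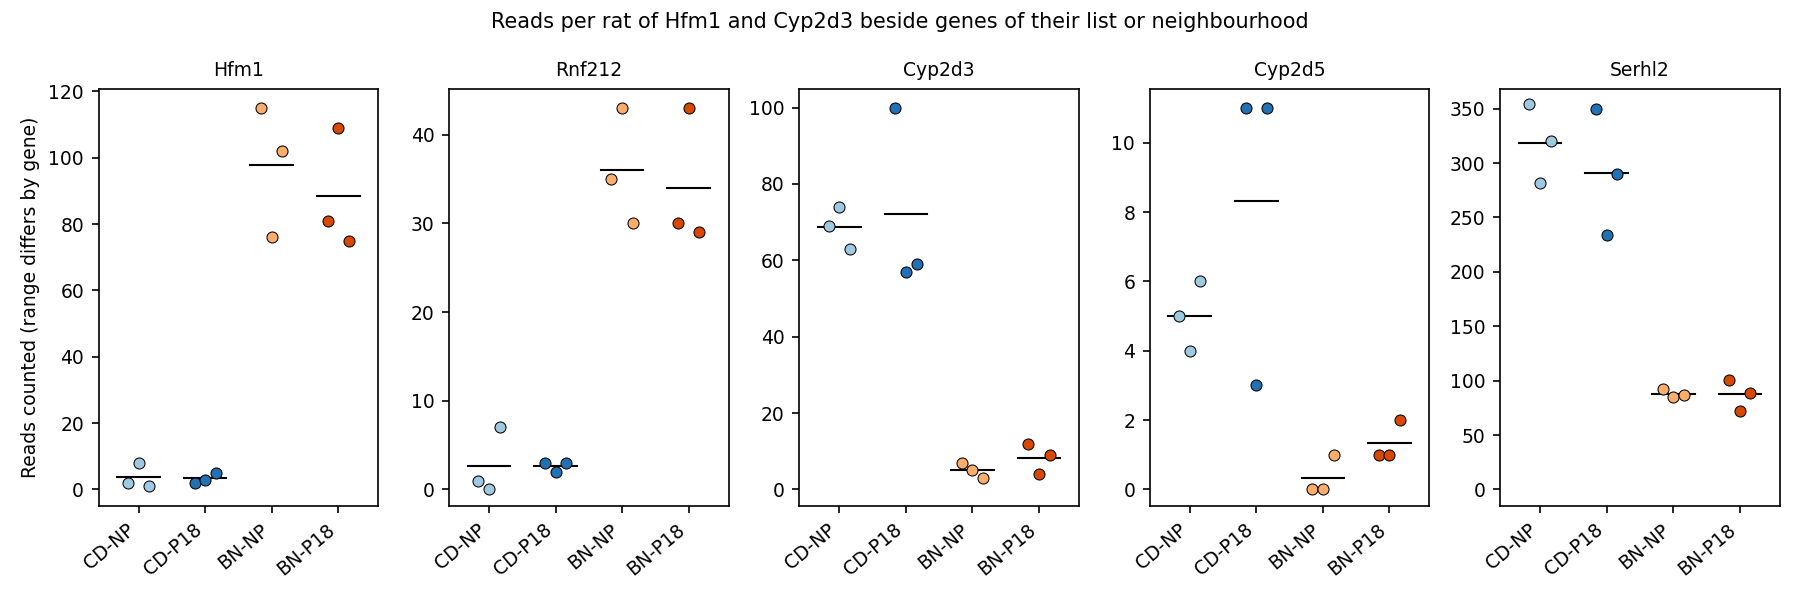
Reads counted per rat (linear axes whose range differs by gene) for Hfm1, Rnf212, Cyp2d3, Cyp2d5 and Serhl2, with 1 point per rat and a line at the group mean of 3 rats. Rnf212 splits by strain like Hfm1, with at most 7 reads in a CD rat, and Serhl2 splits like Cyp2d3. Cyp2d5 has the same direction but few reads, with 3 in the lowest CD rat and 2 in the highest BN rat.

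Cyp2d3, the drug-metabolising P450, was low in BN kidneys, at 7.88% of the CD level at NP and 12.5% at P18. CD-NP rats had 69, 74 and 63 reads and CD-P18 rats 100, 57 and 59. BN-NP rats had 7, 5 and 3 reads and BN-P18 rats 12, 4 and 9. Stages overlapped within each strain, and the lowest CD rat was 4.67-fold above the highest BN rat, BN-P18 replicate 1, in CPM.

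The means of Cyp2d3 were 7.13 ± 0.599 and 6.96 ± 1.41 CPM in NP and P18 rats of CD and 0.562 ± 0.226 and 0.870 ± 0.468 CPM in those of BN (SD, n = 3). Its log2 strain difference was -3.64 ± 0.36 (SE) at NP and -3.02 ± 0.33 at P18. In BN the spread between rats, 40.2% of the mean at NP and 53.8% at P18, compares with 44.7% and 34.6% from counting alone.

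In RefSeq order Cyp2d3 is flanked by Cyp2d5 and Cyp2d1 on one side and by Cyp2d2 and Tcf20 on the other. Of these only Cyp2d5 could be looked up, and it had too few reads to be tested: 5, 4 and 6 in CD-NP rats and 11, 3 and 11 in CD-P18 rats, against 0, 0 and 1 in BN-NP rats and 1, 1 and 2 in BN-P18 rats. Every CD rat thus had more Cyp2d5 reads than any BN rat. How reads were shared or lost between these related genes was not tested.

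Serhl2, a serine hydrolase-like gene on the same chromosome with 5 annotated entries between it and Cyp2d3, was also lower in BN. Its CPM ranged from 25.8 to 35.1 in CD rats of both stages and from 6.56 to 10.8 in BN rats. The log2 difference was -1.75 ± 0.15 at NP and -1.68 ± 0.15 at P18, and the gene was found by the likeness of its pattern to that of Cyp2d3 (Pearson r = 0.975), so no test is given.

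Of 20 other CYP2 genes listed, 4 could be looked up and 3 were tested, and none of the 3 was called lower in BN. Cyp2e1, which oxidises ethanol and small solvents, had 397 ± 53.2 and 273 ± 15.2 CPM in NP and P18 rats of CD and 399 ± 9.07 and 254 ± 21.9 CPM in those of BN (SD, n = 3). Cyp2e1 fell with pregnancy in CD (log2 -0.54 ± 0.09, edgeR adjusted p = 0.00782) and in BN (-0.65 ± 0.09, edgeR adjusted p = 0.00805), and its strain difference was 0.01 ± 0.09 at NP. Cyp2r1, a vitamin D 25-hydroxylase, was higher in BN at both stages (0.53 ± 0.12 and 0.52 ± 0.12, edgeR adjusted p = 0.0235 and 0.0234). Cyp2j10 passed in no comparison, with log2 -0.55 ± 0.18 between strains at NP (edgeR adjusted p = 0.102).

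B4galt6, a lactosylceramide synthase, showed the smallest strain difference and the tightest groups. Its CPM was 110.3, 106.2 and 106.0 in CD-NP and 126.5, 124.9 and 124.3 in CD-P18. In BN it was 65.5, 64.4 and 66.1 at NP and 70.8, 73.3 and 74.0 at P18. No group overlapped another, so the 4 groups fell in the order CD-P18, CD-NP, BN-P18, BN-NP.

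The means of B4galt6 were 107.5 ± 2.40 and 125.2 ± 1.14 CPM in NP and P18 rats of CD and 65.3 ± 0.849 and 72.7 ± 1.65 CPM in those of BN (SD, n = 3). The log2 strain difference was -0.72 ± 0.06 (SE) at NP and -0.78 ± 0.06 at P18, which puts BN at 60.7% and 58.1% of CD. The spread between rats of a group was 0.906 to 2.26% of the mean. That is below the 2.80 to 4.13% expected from counting the reads alone. Each SD rests on 3 rats, and choosing a gene for its strain difference in these same rats favours a small spread. No weight is therefore put on this comparison.

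Calls among other genes of glycosphingolipid metabolism went both ways, and B4galt5 was among the listed genes that could not be looked up. Of 20 listed, 11 could be looked up, with 3 called higher and 1 lower in BN at P18, and list median log2 strain differences of -0.07 at NP and 0.21 at P18, against -0.001 and 0.005 over all tested genes. B3galnt1, which makes globoside, was lower in BN at NP (-0.53 ± 0.17, edgeR adjusted p = 0.0789).

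At P18 Ugcg, the glucosylceramide synthase that acts one step before B4galt6, was higher in BN (log2 0.48 ± 0.09, edgeR adjusted p = 0.00573). St3gal5, which converts lactosylceramide to the ganglioside GM3, was lower (-0.44 ± 0.12, edgeR adjusted p = 0.04). B4galnt1 and Gm2a were higher at that stage (0.56 ± 0.17 and 0.34 ± 0.08, edgeR adjusted p = 0.0704 and 0.0225), and B4galnt1 fell with pregnancy in CD (-0.58 ± 0.17, edgeR adjusted p = 0.0961). The saposin precursor Psap, with group means of 475 to 586 CPM, passed in no comparison, and neither did the lysosomal hydrolases Glb1 and Hexa. The annotated neighbours of B4galt6 are LOC102551809 and Ttr on one side and LOC102551486 and Ipo5-ps1 on the other.

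From NP to P18 the strain difference of each gene changed by at most 0.62 on the log2 scale, beside strain differences that themselves ran from 0.72 to 4.79 in size at NP. The change in the log2 difference, P18 minus NP, was 0.32 for LOC100134871 (95% interval -0.19 to 0.83), -0.43 for ENSRNOG00000015161 (-1.04 to 0.19) and 0.62 for Cyp2d3 (-0.54 to 1.79). For Hfm1 it was -0.08 (-1.79 to 1.62) and for B4galt6 -0.07 (-0.23 to 0.10). The genes were chosen for a difference present at both stages, so these values describe them and are no test of stability. The intervals of ENSRNOG00000015161, Hfm1 and Cyp2d3 reach past a 2-fold change in at least 1 direction, whereas the B4galt6 interval is narrow.

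**Figure D3:**
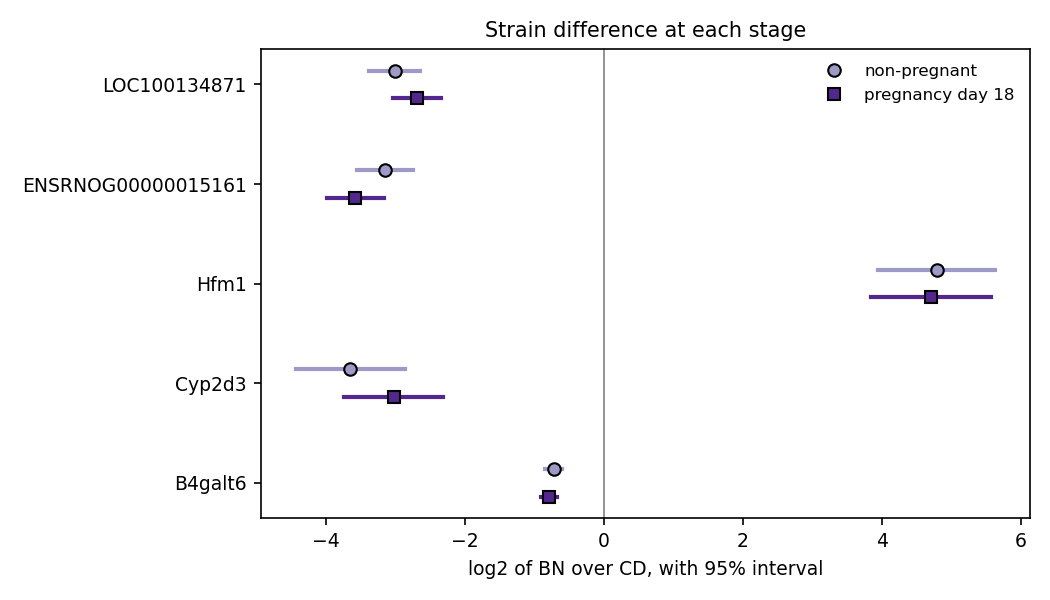
Log2 of BN over CD for each gene at NP (circles) and P18 (squares), with 95% intervals from the edgeR fit on 3 rats per group. The genes were chosen for this difference, so the plot describes its size at each stage: -3.01 and -2.69 for LOC100134871, and 4.79 and 4.70 for Hfm1.

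The median size of the change over the 5 genes was 0.32 on the log2 scale, with a median SE of 0.29. Over all 14212 tested genes the median size was 0.17, with a median SE of 0.19. Over the 453 genes called between strains at both stages in the same direction it was 0.20, with a median SE of 0.25. A change from NP to P18 with an edgeR adjusted p under 0.1 was found in 134 of the 14212 genes and in 1 of the 453, which were themselves selected for the same direction at both stages. The strain differences themselves had a median size of 3.15 at NP and 3.02 at P18 in the 5 genes, against 0.90 and 0.87 in the 453.

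Pregnancy itself called none of the 5 genes in CD or in BN (edgeR's quasi-likelihood test, Benjamini-Hochberg over all tested genes). DESeq2 called 0 of the 5 in either strain as well. The genes were chosen for a strain difference at both stages in these same rats, so the choice was not independent of this contrast. With so few of all tested genes called, the absence of calls among 5 genes carries no weight. At an unadjusted p under 0.05, B4galt6 passed in CD, and LOC100134871 and B4galt6 passed in BN. The background of 4.71% of tested genes in CD and 1.40% in BN is for calls, not for the unadjusted threshold. The share of all tested genes passing the unadjusted threshold was not determined, so no weight is put on these passes. Among the 14212 tested genes, B4galt6 ranked 377 for the pregnancy difference in CD. In BN, LOC100134871 ranked 695 and B4galt6 ranked 703.

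B4galt6 was 1.17-fold higher at P18 in CD (log2 0.22 ± 0.05, edgeR adjusted p = 0.0472), which passed the p threshold but not the fold threshold, with all 3 CD-P18 rats above all CD-NP rats. In BN its value was 0.16 ± 0.06 (edgeR adjusted p = 0.318), again with every P18 rat above every NP rat. LOC100134871 had a log2 pregnancy value of 0.22 ± 0.14 in CD and 0.54 ± 0.20 in BN (edgeR adjusted p = 0.439 and 0.316). Without overlap between stages were 1 of the 5 genes in CD and 2 in BN, against 21.5% and 14.7% of all tested genes.

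**Figure D4:**
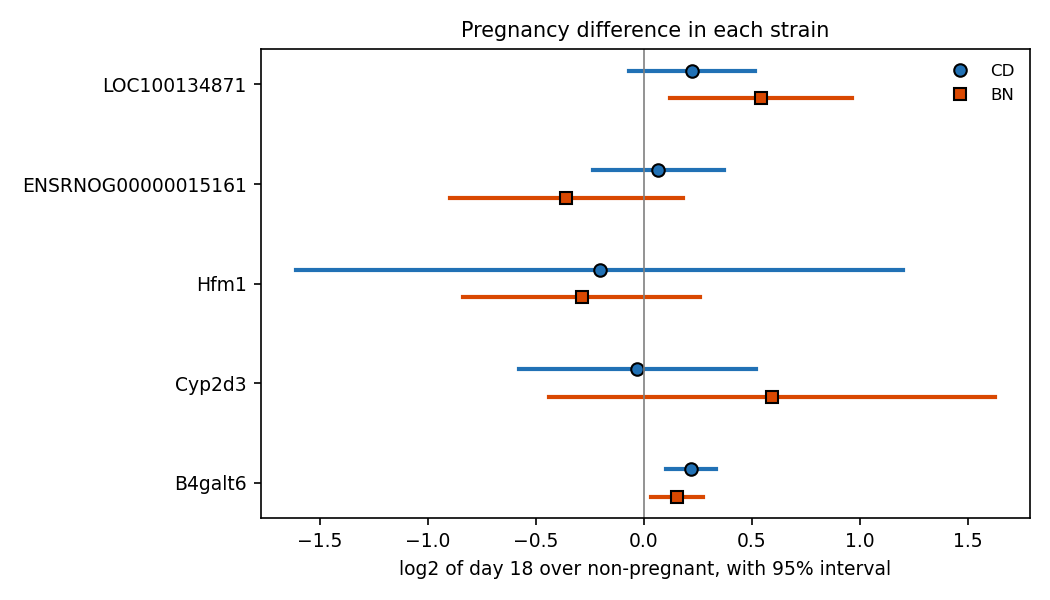
Log2 of P18 over NP for each gene in CD (circles) and BN (squares), with 95% intervals from the edgeR fit on 3 rats per group. The B4galt6 intervals lie above 0 in both strains (0.10 to 0.34 in CD and 0.03 to 0.28 in BN), and those of Hfm1 and Cyp2d3 are wide and include 0.

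The other genes had smaller values or wider intervals. ENSRNOG00000015161 had log2 pregnancy values of 0.07 in CD (95% interval -0.24 to 0.37) and -0.36 in BN (-0.90 to 0.18). Hfm1 had -0.20 in CD (-1.61 to 1.20) and -0.29 in BN (-0.84 to 0.26). Cyp2d3 had -0.03 in CD (-0.58 to 0.52) and 0.59 in BN (-0.44 to 1.63). Their edgeR adjusted p ran from 0.754 to 0.976, and a change anywhere within these intervals is compatible with the counts.

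Among all tested genes, those most like each of the 5 over the 12 rats were themselves strain genes. The likeness is Pearson's r of log2 CPM with a prior count of 2, a description only, since 12 points that fall into 2 strains raise r for any pair of genes that both split by strain. LOC100134871 was closest to ENSRNOG00000022144 (r = 0.985) and ENSRNOG00000051193 (0.983), both lower in BN, and then to B4galt6 (0.981). ENSRNOG00000015161 was closest to Ptov1 (0.987), ENSRNOG00000051193 (0.986) and Acsm5 (0.983), a mitochondrial acyl-CoA synthetase.

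Ptov1 reached this r with a log2 strain difference of -0.23 ± 0.06 at NP and -0.24 ± 0.06 at P18, and Acsm5 with -3.36 ± 0.27 and -4.47 ± 0.30, so likeness of pattern does not require a like size. Hfm1 was closest to Cd160 (0.984), a receptor of lymphocytes, Agbl4 (0.980), a deglutamylase of tubulin, and the ribosomal protein gene Rpl6 (0.974). Their log2 strain differences at NP were 2.82, 9.54 and 1.06. Cyp2d3 was closest to Ppp2r2c (0.986), a regulatory subunit of protein phosphatase 2A, then LOC100134871 (0.980) and Serhl2. B4galt6 was closest to ENSRNOG00000051193 (0.984), LOC100134871 (0.981) and ENSRNOG00000022144 (0.974).

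Over the 12 rats, strain accounted for 91.6 to 98.4% of the variance in log2 CPM of the 5 genes. They were chosen for their strain difference in these same rats, so a high share was given in advance and is a description only. Stage accounted for 0.00256 to 5.84%, with B4galt6 at the top of that range, and the change of the strain difference with stage for 0.179 to 0.666%. The SD between rats of a group was 0.0256 on the log2 scale for B4galt6 and 0.867 for Hfm1, with the other genes between.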

How the data were processed

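Gene counts of 12 kidney RNA-seq libraries, 3 rats per group, were analysed. Reads had been trimmed (Trimmomatic), aligned by STAR 2.5.2 to the Rnor6.0 assembly and assigned to genes by HTSeq 0.6.1, and the authors deposited the resulting raw counts by Ensembl identifier. The kit is stranded, and the strand setting of the counting is not given in the sources used here, so antisense or overlapping genes can share reads. Of all entries, 72.5 to 75.6% were not assigned to a single gene and were left out. Reads on no gene, on several genes or at several places were not told apart in this share.

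With R 4.3.3 and edgeR 4.0.16, genes kept by filterByExpr were scaled by TMM and tested in 1 quasi-likelihood fit of the 4 groups without covariates, which was tested on simulated data. Standard errors came from the F statistic. DESeq2 1.42.0, other scalings and filters, a replicate block and leaving out each rat were alternatives. The p-values set a difference between groups against the spread between rats, which is estimated for each gene with help from the other genes.

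The 5 genes and the lists were chosen with earlier results of these data known. Named besides them are list genes that were called or among the 3 highest of their list, the 3 genes most like each of the 5, and 2 annotated neighbours per side. Symbols were paired with identifiers by matching fold changes and mean levels with the study's gene table (3008 of 3064 symbols; 0.881% with signs turned), which lists genes with differences in these samples. Some list genes are not reported here. Columns of the authors' own comparisons were used for this pairing only. RefSeq names, order and sequences are of GRCr8, another build. The bisulfite libraries (RRBS) were not used here, because no Rnor6.0 gene positions were at hand. Same-numbered rats did not deviate together (r from -0.188 to 0.27 between groups), so numbers were not taken as pairs.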

Additional observations from a re-analysis of the deposited data

How the results depend on the processing

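Strain differences of the 5 genes kept their direction in 93 of 93 alternative values at NP and 93 of 93 at P18, with DESeq2, upper-quartile or RLE scaling, other filters, a replicate block, only the 6 libraries compared, or a rat left out. With upper-quartile scaling B4galt6 moved to -0.76 at P18 and its change from NP to P18 to -0.032. Leaving out single rats moved the NP difference of Hfm1 between 4.38 and 6.02 and its change between -1.32 and 0.34 (B4galt6: -0.80 to -0.77 at P18, change -0.09 to -0.05). No pregnancy difference of the 5 genes was called under any setting in which the gene was tested; the adjusted p of B4galt6 in CD ran from 0.0275 to 0.149. At least 1 CPM in all libraries removed Hfm1 and Cyp2d3, and with only the 6 libraries compared Hfm1 in CD and Cyp2d3 in BN were not tested for pregnancy.

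Counts over all genes moved more. At an adjusted p under 0.05 and a fold over 1.5 they were 496 and 616 for strain at NP and P18, and 225 and 70 for pregnancy in CD and BN, against 1191, 1365, 669 and 199. Without a filter the BN pregnancy count was 352, and with only the 6 libraries compared 128. Leaving out single rats gave 657 to 1372, 963 to 1460, 327 to 715 and 27 to 228 in the same order; the lowest counts came without replicate 2 of BN-NP, replicate 2 of BN-P18, replicate 3 of CD-P18 and replicate 1 of BN-NP. With the replicate block the counts were 1274, 1414, 704 and 286; rats of 1 number did not deviate together, and 4 of 12 correlated best with their own number. The methylation comparison and its alternatives were not run. The few reads of Hfm1 in CD and Cyp2d3 in BN limit the size of their differences.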
